A study of Homo sapiens with 12 samples.

Results

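Messengers of the integrated stress response and of genes translated through upstream open reading frames (uORFs) were followed in RNA that co-precipitated with eIF4E. The members are 10 genes: ATF4, ATF3, ATF5, DDIT3, DDIT4, PPP1R15A, TRIB3, XBP1, ASNS and SLC7A11. Every probe set that the platform annotation assigns to 1 of these genes and to no other was taken, which gave 15 probe sets of the 19064 with a single gene. Of these 15, 14 were bright enough to be tested, and each of the 10 genes kept at least 1. The probe set left out, 217389_s_at of ATF5, had signals of 4.18 to 40.1.

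MDA-MB-231, an established human triple-negative breast cancer line, was left untreated or was irradiated with X-rays (2 Gy) and collected after 6 h. From the lysates, RNA was pulled down either with anti-eIF4E or with a non-specific IgG, and the latter gives the background. The 12 Affymetrix arrays form 4 groups of 3: IgG from untreated cells, IgG from irradiated cells, eIF4E from untreated cells and eIF4E from irradiated cells. All groups come from this 1 line, the titles number the replicates 1 to 3, and the design text calls them biological without saying whether they were separate cultures, so p-values measure the spread between these arrays, which may be technical.

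The protein eIF4E binds the cap of a messenger and brings it to the ribosome through the scaffold eIF4G. In the integrated stress response, kinases phosphorylate the initiation factor eIF2, general initiation slows, and messengers such as ATF4 are translated better because ribosomes pass their inhibitory uORFs. The ATF4 protein then turns on genes for amino acid supply, redox balance and feedback. Members of this response were ordered here by those roles: transcription factors first, then regulators of translation and signalling, then metabolic genes.

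Promoter windows of RefSeq (GRCh38.p14), which run from 250 bases before to 50 bases after a gene's start, held 18 windows for the 9 members other than SLC7A11. Motifs known for this response or for endoplasmic reticulum stress were searched on both strands. The core of the amino acid response element, TGATGNAA, was in the windows of ATF3 and ASNS and in 3.62% of all 35116 windows. The cAMP response element, TGACGTCA, was in that of PPP1R15A (1.85% of all windows), and the endoplasmic reticulum stress element, CCAAT and CCACG with 9 bases between them, was in that of XBP1 (0.0769%). No member window held more than 1 of these motifs. The 4 stretches are shown because they hold the matches in the members' windows. The ATF3 window is the more upstream of those listed for the gene, so its match need not be the element known for this gene. They are printed 5′ to 3′ on the gene's strand with the match in capitals, and a match is a description of letters and not a bound site.
ATF3, chr1:212565195-212565254, plus strand: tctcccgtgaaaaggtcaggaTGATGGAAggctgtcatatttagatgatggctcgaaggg
ASNS, chr7:97872438-97872497, minus strand: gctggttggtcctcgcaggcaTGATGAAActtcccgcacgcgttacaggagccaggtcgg
PPP1R15A, chr19:48872342-48872401, plus strand: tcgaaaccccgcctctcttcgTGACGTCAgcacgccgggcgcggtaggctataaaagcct
XBP1, chr22:28800578-28800637, minus strand: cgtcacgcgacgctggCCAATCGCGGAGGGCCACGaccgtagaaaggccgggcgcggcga
In ASNS the match lay 68 to 61 bases before the start, in ATF3 191 to 184, in PPP1R15A 58 to 51 and in XBP1 52 to 34.

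Arrays of both antibodies differed in quality measures, whatever the treatment. On IgG arrays the 3' to 5' signal ratio was 2.96 to 5.38 for actin and 2.03 to 2.78 for GAPDH, and on eIF4E arrays it was 1.33 to 1.53 and 1.13 to 1.31. The Alu repeat probe set gave 36876 to 53246 on IgG arrays and 13482 to 18476 on eIF4E arrays. Since these measures move together with the antibody, they touch every antibody difference, and their part in the differences given here was not tested. All arrays were scaled to 1 trimmed mean, 500.2, so every difference is relative to the other probe sets of an array. Hybridization controls were 6.08-fold brighter with IgG, and rescaling to them would move every probe set by 2.60 (log2) towards eIF4E. That is more than the largest decrease of a member given here (-2.44, 217678_at of SLC7A11 in untreated cells). A lower amount of a messenger in the cells and less of it bound to eIF4E cannot be told apart in these bulk precipitates, and neither can fewer cells and less RNA per cell. The 6 markers of the line (VIM, CD44, AXL, CAV1, MSN and PLAU) were at 1497 to 27305. Of 7 luminal markers, ESR1, PGR, FOXA1, CDH1 and TFF1 stayed at or below 60.9, while GATA3 (603 to 1466) and KRT19 (1845 to 4932) were detected. Markers of leukocytes (5 genes), liver (6) and neuron or muscle (8) reached at most 127.6, 77.5 and 103.9, and their median was 9.88 to 26.4 across arrays.

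Averaged over untreated and irradiated cells, the messengers of the stress factors DDIT3 and ATF4 and of the phosphatase subunit PPP1R15A were relatively higher with eIF4E than with IgG, and that of the cystine transporter SLC7A11 was lower. Differences are in log2(signal + 16), with the SE of a limma fit over all 12 arrays and p adjusted by Benjamini-Hochberg over the 11438 probe sets tested. Of the 14 member probe sets, 6 were higher (ATF4, DDIT3, DDIT4, XBP1 and both of PPP1R15A) and 4 were lower (2 of ATF5 and 2 of SLC7A11). In the same comparison 66.4% of all tested probe sets passed, 29.8% higher and 36.6% lower, so a member's call by itself is common on these arrays. The members' median was 0.18 against -0.07 over all tested probe sets. In untreated cells 7 member probe sets passed (4 higher, 3 lower, against 54.2% of all, 24.4% higher and 29.8% lower). In irradiated cells 8 member probe sets passed (5 higher, 3 lower, against 54.6% of all, 24.4% higher and 30.3% lower). In 5 of 14 probe sets (DDIT3, both of PPP1R15A, and 209921_at and 217678_at of SLC7A11) the 6 eIF4E arrays did not overlap the 6 IgG arrays, against 45.7% of all tested probe sets.

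**Figure D1:**
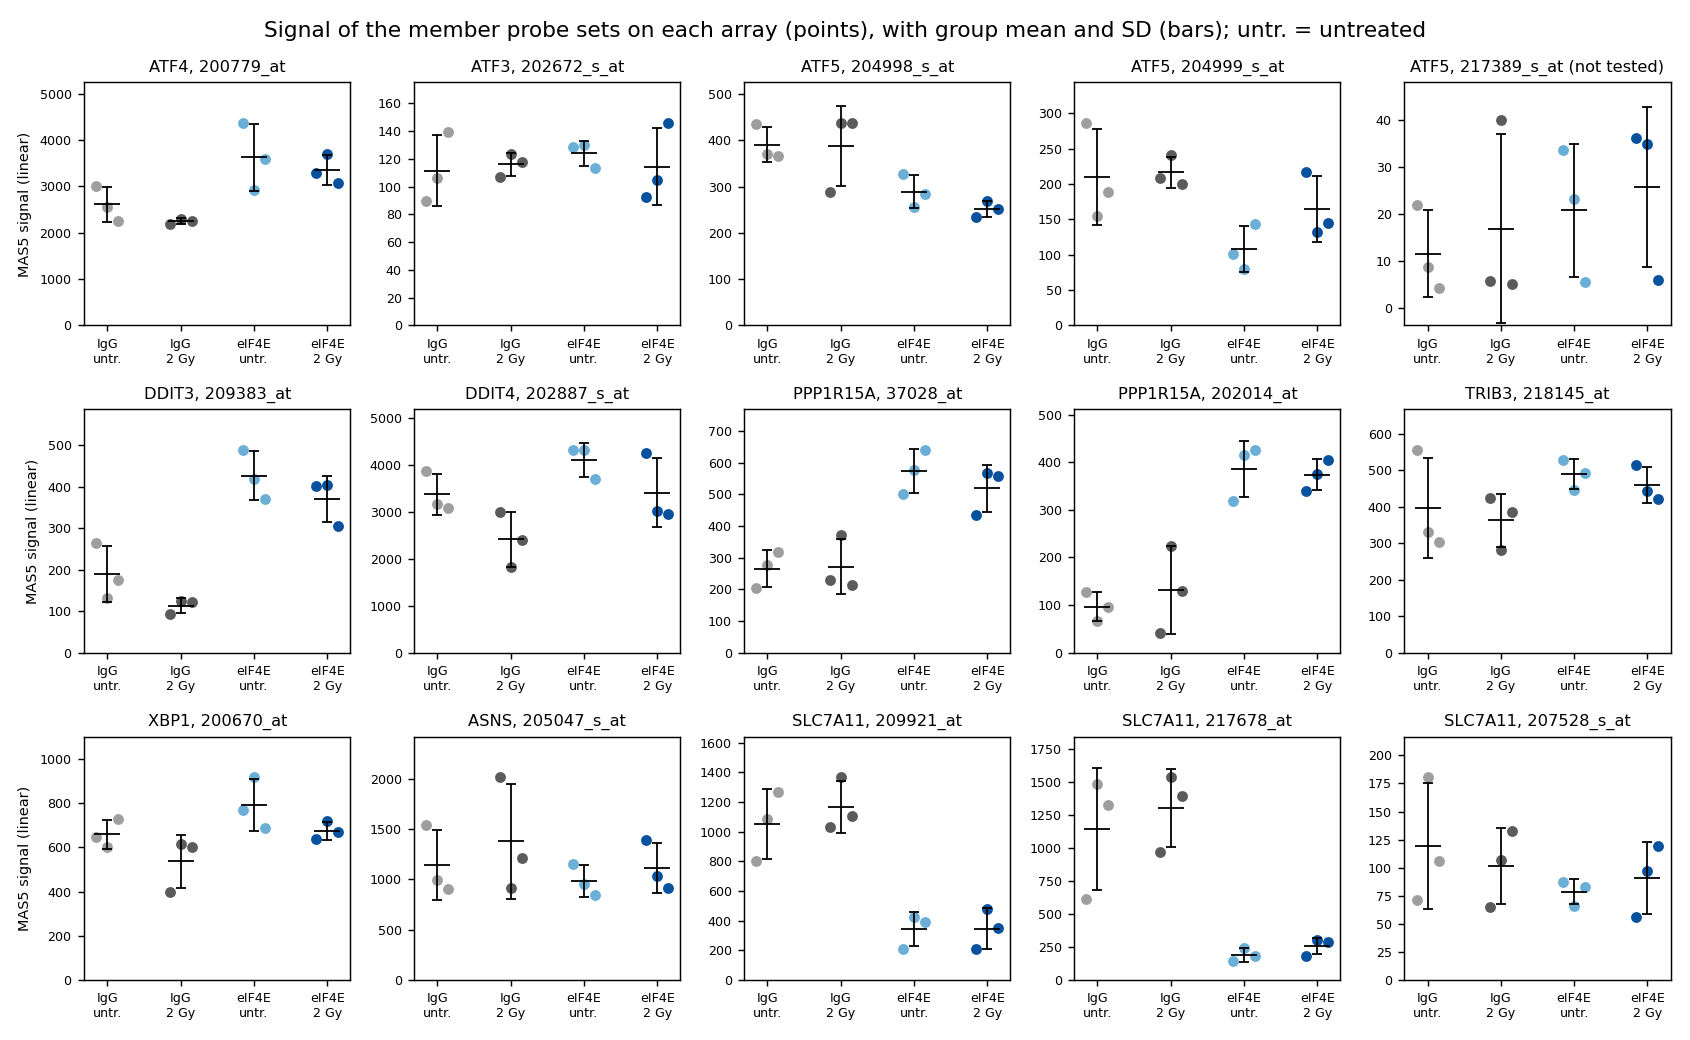
Deposited MAS5 signal (vertical axes, linear) of the 15 member probe sets on each of the 12 arrays (points), by antibody and treatment, with the group's mean and SD as bars (n = 3). In the panels of DDIT3 and PPP1R15A all eIF4E points lie above all IgG points, and in the panels of SLC7A11 209921_at and 217678_at all lie below.

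ATF4 is the transcription factor at the centre of the response, and its translation is held back by uORFs in unstressed cells. Its signal (200779_at) was 3012, 2561 and 2264 with IgG in untreated cells and 4373, 2933 and 3586 with eIF4E, where the groups overlapped. After irradiation the values were 2182, 2306 and 2259 with IgG and 3281, 3699 and 3079 with eIF4E. ATF4 was thus recovered at a higher relative level with eIF4E, by 0.52 ± 0.11 over both treatments (adjusted p = 0.000541, 6 arrays a side), which is 1.43-fold. The difference was 0.46 ± 0.16 in untreated cells (adjusted p = 0.0187) and 0.57 ± 0.16 in irradiated cells (adjusted p = 0.00537). In untreated cells ATF4 no longer passed when IgG replicate 2 (adjusted p = 0.0506) or 3 (0.0918) or eIF4E replicate 1 (0.116) or 3 (0.0507) of that treatment was omitted, with values of 0.32 to 0.46. Over both treatments ATF4 kept its call under every alternative, with 0.44 to 0.63.

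DDIT3 encodes CHOP, the transcription factor that drives death under prolonged stress and whose messenger also carries a uORF. Its signal (209383_at) was 264, 131 and 175 with IgG and 488, 419 and 371 with eIF4E in untreated cells. In irradiated cells it was 91.9, 125 and 121 with IgG and 401, 404 and 305 with eIF4E. The 6 eIF4E arrays all lay above the 6 IgG arrays, and the lowest IgG values were those of irradiated cells. The difference of 1.36 ± 0.16 (2.57-fold, adjusted p = 1.18e-06) was the highest of the member transcription factors. It was 1.14 ± 0.23 in untreated cells (adjusted p = 0.000457) and 1.58 ± 0.23 in irradiated cells (adjusted p = 2.2e-05). Alternatives left it between 1.13 and 1.49 over both treatments, and its call held in all of them.

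ATF5, a relative of ATF4 under the same kind of uORF control, went the other way. Probe set 204998_s_at gave 435, 371 and 367 with IgG and 328, 256 and 284 with eIF4E in untreated cells. Irradiated cells gave 289, 437 and 438 with IgG and 235, 269 and 251 with eIF4E. Over both treatments the arrays of the antibodies overlapped, and ATF5 fell by 0.49 (SE 0.13, adjusted p = 0.0031). Probe set 204999_s_at gave 286, 155 and 189 with IgG and 101, 79.4 and 143 with eIF4E in untreated cells. Irradiated cells gave 209, 241 and 199.6 with IgG and 218, 132 and 144 with eIF4E, so that the groups overlapped there. Over both treatments it fell by 0.62 (SE 0.18, adjusted p = 0.00619).

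The ATF5 probe sets passed in different treatments. In untreated cells 204998_s_at was at -0.42 ± 0.18 (adjusted p = 0.0671) and 204999_s_at at -0.86 ± 0.26 (adjusted p = 0.00956). In irradiated cells they were at -0.57 ± 0.18 (adjusted p = 0.0151) and -0.39 ± 0.26 (adjusted p = 0.216). The change of the antibody difference with irradiation was -0.15 ± 0.26 and 0.47 ± 0.36 (unadjusted p = 0.56 and 0.212), so no difference between treatments was shown. The irradiated call of 204998_s_at did not survive the omission of IgG replicate 2 or 3 of irradiated cells (adjusted p = 0.0593 and 0.0629) or quantile normalization (-0.39, adjusted p = 0.0882). The untreated call of 204999_s_at ended when IgG replicate 1 (-0.63, adjusted p = 0.0559) or eIF4E replicate 2 (-0.69, adjusted p = 0.0536) of untreated cells was omitted, and 204998_s_at passed there when irradiated IgG replicate 1 was omitted (adjusted p = 0.0287). Averaged over its 3 probe sets, the dim one included, ATF5 was at -0.24 (adjusted p = 0.225).

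ATF3, an early stress repressor, was dim. Its signal (202672_s_at) was 89.5 to 139 on the 6 IgG arrays, with a median of 113, and 92.5 to 146 on the 6 eIF4E arrays, with a median of 121. The groups overlapped throughout and the difference was 0.06 ± 0.16 (95% interval -0.29 to 0.40, adjusted p = 0.777).

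XBP1, the transcription factor of the IRE1 branch of the unfolded protein response, is activated by cytoplasmic splicing of its messenger, which was not examined here. Its signal (200670_at) was 649, 600.1 and 731 with IgG and 769, 919 and 690.2 with eIF4E in untreated cells. After 2 Gy it was 399, 614 and 601 with IgG and 639, 719 and 671 with eIF4E. The difference of 0.30 ± 0.13 over both treatments just passed (adjusted p = 0.0439), and those of untreated cells (0.25 ± 0.18, adjusted p = 0.241) and irradiated cells (0.35 ± 0.18, adjusted p = 0.109) did not. Omission of any of these arrays ended the call: untreated IgG replicate 1 (adjusted p = 0.0651) or 2 (0.096), irradiated IgG replicate 1 (0.103), untreated eIF4E replicate 1 (0.0634) or 2 (0.121), and irradiated eIF4E replicate 2 (0.0895) or 3 (0.0707).

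**Figure D2:**
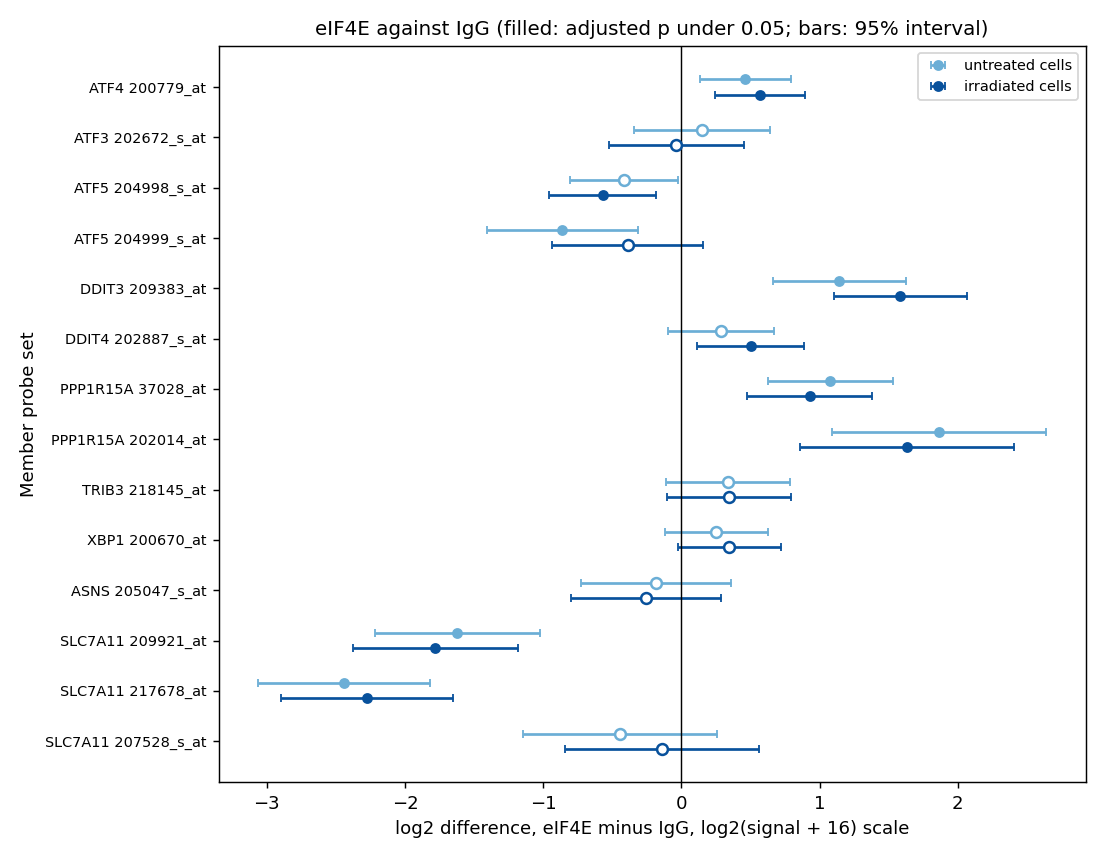
Difference between eIF4E and IgG (horizontal axis, log2(signal + 16)) of the 14 tested member probe sets, in untreated and irradiated cells, with 95% intervals of the limma fit (3 arrays a side). Filled points passed an adjusted p of 0.05: ATF4, DDIT3 and PPP1R15A lie right of 0 and 2 probe sets of SLC7A11 lie left of it in both treatments.

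PPP1R15A encodes GADD34, the subunit that directs a phosphatase to eIF2 and ends the response, and its own translation resists the arrest through a uORF. Probe set 37028_at gave 204, 275.5 and 317 with IgG and 500.7, 578 and 640 with eIF4E in untreated cells. Irradiated cells gave 230.3, 370.5 and 214 with IgG and 434, 568 and 557 with eIF4E. All 6 eIF4E arrays were above all 6 IgG arrays. Probe set 202014_at gave 127, 66.1 and 96.6 with IgG and 318, 415 and 426 with eIF4E in untreated cells. After irradiation it gave 40.6, 225 and 129 with IgG and 340.4, 375 and 406 with eIF4E, and again no array overlapped. The IgG arrays of this probe set spread widely, from 40.6 to 225, while the eIF4E arrays stayed within 318 to 426.

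PPP1R15A was higher by 1.00 ± 0.15 (2.00-fold, adjusted p = 1.91e-05) by 37028_at and by 1.75 ± 0.26 (3.36-fold, adjusted p = 1.53e-05) by 202014_at, averaged over both treatments. Untreated cells gave 1.08 ± 0.21 and 1.86 ± 0.37 (adjusted p = 0.000466 and 0.000423). In irradiated cells they were 0.93 ± 0.21 and 1.63 ± 0.37 (adjusted p = 0.0016 and 0.00127). Both probe sets thus passed in the same direction in each treatment. Under the alternatives they ranged from 0.89 to 1.38 and from 1.39 to 1.98 over both treatments, and their calls held.

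DDIT4, which encodes REDD1, an inhibitor of mTORC1 induced by stress, was bright. Its signal (202887_s_at) was 3860, 3172 and 3072 with IgG and 4311, 4313 and 3686 with eIF4E in untreated cells. After irradiation it was 3003, 1833 and 2405 with IgG and 4248, 3010 and 2952 with eIF4E. The groups overlapped in each treatment. DDIT4 was higher by 0.39 ± 0.13 over both treatments (adjusted p = 0.0129) and kept that call under every alternative. It was at 0.29 ± 0.18 in untreated cells (adjusted p = 0.197) and at 0.50 ± 0.18 in irradiated cells (adjusted p = 0.0284). The irradiated call was lost without irradiated IgG replicate 2 (0.32, adjusted p = 0.153) or 3 (0.51, adjusted p = 0.0534) and without irradiated eIF4E replicate 1 (0.33, adjusted p = 0.157). Without a variance trend or with only the groups compared it was lost too (adjusted p = 0.0565 and 0.0625).

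TRIB3, a pseudokinase that ATF4 induces and that restrains it, lay just outside the threshold. Its signal (218145_at) was 555, 330.3 and 303 with IgG and 527, 445 and 493 with eIF4E in untreated cells. After 2 Gy it was 423, 281 and 384 with IgG and 515, 444 and 421 with eIF4E, so that single IgG arrays reached into the eIF4E range in both treatments. The difference was 0.34 ± 0.15 (adjusted p = 0.0553) when averaged, and 0.34 ± 0.21 in either treatment alone (adjusted p = 0.193 and 0.184). Either scaling brought it past the threshold, with 0.48 by quantile normalization (adjusted p = 0.0127) and 0.45 by median centring (0.0142). So did array quality weights (0.38, adjusted p = 0.0107), a filter at the 60th percentile (0.0491) and the replicate number as a block (0.0205). Omission of IgG replicate 1 had the same effect, that of untreated cells (0.47, adjusted p = 0.00442; in untreated cells alone 0.60, 0.016) or that of irradiated cells (0.40, 0.0307).

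SLC7A11, the transporter that takes up cystine for glutathione synthesis, showed the largest antibody difference of the 10 genes, downwards. Probe set 209921_at gave 802, 1087 and 1268 with IgG and 208, 422 and 389.5 with eIF4E in untreated cells. After irradiation it gave 1029.9, 1368 and 1107 with IgG and 205, 478 and 352 with eIF4E. All eIF4E arrays lay below all IgG arrays. Probe set 217678_at gave 615, 1479.8 and 1326 with IgG and 139.9, 242 and 181 with eIF4E in untreated cells. After 2 Gy it gave 967, 1535 and 1393 with IgG and 182, 299.5 and 286 with eIF4E. Here too no array overlapped, and the lowest IgG array was more than 2-fold above the highest eIF4E array.

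Over both treatments SLC7A11 fell by 1.70 (SE 0.20, 3.25-fold, adjusted p = 1.11e-06) for 209921_at, and 217678_at fell by 2.36 (SE 0.21, 5.13-fold, adjusted p = 4.22e-08). Untreated cells had them at -1.62 ± 0.28 and -2.44 ± 0.29 (adjusted p = 0.000138 and 3.89e-06), and irradiated cells at -1.78 ± 0.28 and -2.28 ± 0.29 (adjusted p = 5.73e-05 and 7.69e-06). Their calls held in every alternative in which each was fitted by itself. The third probe set, 207528_s_at, was dim, with 65.1 to 181 on IgG arrays and 56.3 to 119.6 on eIF4E arrays, which overlapped. Its difference was -0.29 ± 0.23 (95% interval -0.79 to 0.21, adjusted p = 0.29), so the probe sets of this gene disagreed in size.

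ASNS, the enzyme that makes asparagine and a standard readout of ATF4, did not pass. Its signal (205047_s_at) was 1544, 995 and 899.5 with IgG and 1157, 956 and 845 with eIF4E in untreated cells. After irradiation it was 2018, 914 and 1211 with IgG and 1389, 1030.1 and 914 with eIF4E. The groups overlapped in both treatments. The difference was -0.22 ± 0.18 (95% interval -0.60 to 0.16, adjusted p = 0.299), and its sign turned in untreated cells without untreated IgG replicate 1 and in irradiated cells without irradiated IgG replicate 1.

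Several members followed the replicate number. TRIB3 and ASNS were highest on replicate 1 in all 4 groups, as were 4.55% of all tested probe sets. SLC7A11 was lowest on replicate 1 in all 4 groups by 209921_at and 217678_at, as were 7.35% of all. In replicate 2, 217678_at was also highest in all 4 groups, as were 1.86% of all. The ratio of the hybridization controls bioB to bioC was 0.369 to 0.459 on the 4 replicate 1 arrays and 0.0351 to 0.0899 on the others. Its part in these values was not tested. Without replicate 1 of every group DDIT3, PPP1R15A and the 2 bright SLC7A11 probe sets kept their calls, XBP1 lost its call (0.22, adjusted p = 0.115) and TRIB3 gained one (0.46, adjusted p = 0.00693). In untreated cells 204999_s_at of ATF5 lost its call without them (-0.60, adjusted p = 0.08), while 204998_s_at of ATF5 and 207528_s_at of SLC7A11 gained one (-0.43 and -0.78, adjusted p = 0.0469 and 0.0455).

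At 6 h after 2 Gy no member passed the threshold in precipitates of either antibody. With eIF4E, 0 of the 14 member probe sets passed (limma; 0% of all 11438), and 1 had an unadjusted p under 0.05 (1.33% of all). That probe set was 204999_s_at of ATF5, at 0.55 ± 0.26 (unadjusted p = 0.0479, adjusted p = 1), while 204998_s_at of the same gene was at -0.18 ± 0.18. The 14 differences lay between -0.29 and 0.55. ATF4 was at -0.10 ± 0.16, with a 95% interval of -0.43 to 0.23, so increases above 0.23 lie outside this interval. DDIT3 was at -0.20 ± 0.23 (-0.68 to 0.28), and PPP1R15A at -0.14 ± 0.21 (-0.59 to 0.31) and -0.04 ± 0.37 (-0.81 to 0.74). The interval of the second PPP1R15A probe set is wide enough to hold changes of over 1.5-fold in either direction. Its SE comes from 1 spread shared by the 4 groups, and so includes the IgG arrays, which ran from 40.6 to 225. The eIF4E arrays ran from 318 to 426.

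In IgG precipitates 0 of 14 passed (0% of all), and 2 had an unadjusted p under 0.05 (7.43% of all). DDIT3 was at -0.64 ± 0.23 and DDIT4 at -0.50 ± 0.18 (unadjusted p = 0.0124 and 0.0144, adjusted p = 0.549 for each). In both genes the 3 irradiated IgG arrays lay below the 3 untreated ones, and the arrays of the treatments did not overlap in 9.10% of all tested probe sets. The effect of irradiation differed between the antibodies in 0 of 14 member probe sets (0% of all). At an unadjusted p under 0.05 it differed in 0 of them and in 3.52% of all. For DDIT3 the difference of both effects was 0.44 ± 0.32 (95% interval -0.24 to 1.12, unadjusted p = 0.189).

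**Figure D3:**
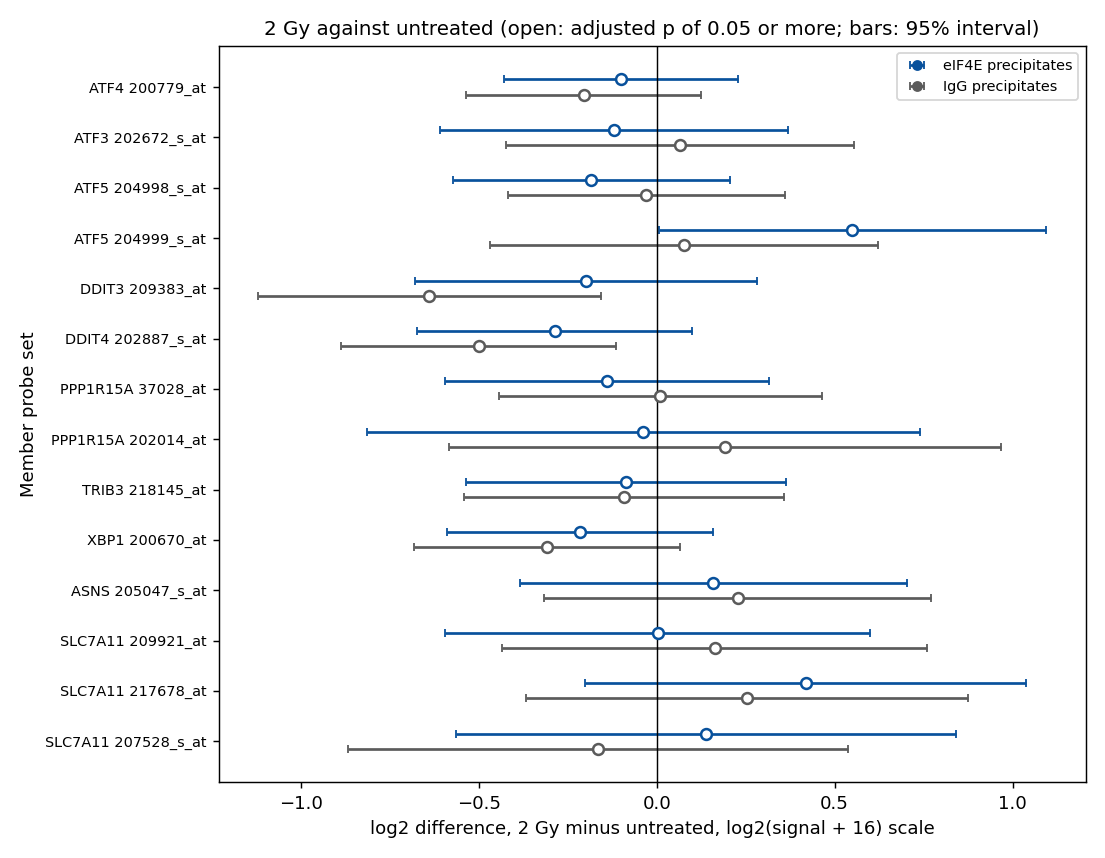
Difference between 2 Gy and untreated cells (horizontal axis, log2(signal + 16)) of the 14 tested member probe sets within eIF4E and within IgG precipitates, with 95% intervals (3 arrays a side). Every point is open, since 0 passed an adjusted p of 0.05, and the intervals of DDIT3 and DDIT4 in IgG lie left of 0.

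Other genes of the pathway, from 5 lists of textbook members, were called in both directions with the antibody. Between 65.9% and 71.8% of a list's tested probe sets passed, against 66.4% of all (29.8% higher, 36.6% lower; median -0.07), so the counts of calls are near that background. Of the eIF2 kinases, eIF2, its exchange factor eIF2B and regulators of the kinases or of eIF2 phosphorylation (PPP1R15B, DNAJC3, GCN1 and IMPACT), 14 of 16 genes were tested by 21 probe sets, of which 4 were higher and 11 lower (median -0.36). Of the 11 lower ones, 4 belonged to the regulators DNAJC3, GCN1 and IMPACT. EIF2B1 and EIF2B2, subunits of eIF2B, were higher by 0.57 ± 0.12 and 0.52 ± 0.11 (adjusted p = 0.000362 and 0.000327). The other subunits were split: EIF2B3 was higher (0.43, adjusted p = 0.00633) and EIF2B5 lower (-0.36, adjusted p = 0.0168). For EIF2B4, 209429_x_at and 215482_s_at did not pass (-0.20 and -0.16). EIF2AK2, the kinase PKR, fell by 2.02 (SE 0.14, adjusted p = 3.07e-09), from 573 ± 99.97 in untreated IgG to 145 ± 27.9 in untreated eIF4E (SD, n = 3). Another EIF2AK2 probe set, 204211_x_at, fell less (-0.85, adjusted p = 0.000509). EIF2S1, the eIF2 subunit that the kinases phosphorylate, fell by 1.31 (SE 0.13, adjusted p = 2.03e-07). Its probe sets did not all move: 201142_at was at -1.20 and 201144_s_at at -0.05 (adjusted p = 0.765).

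Targets of ATF4 other than the members had 41 tested probe sets of 28 genes, 11 higher and 16 lower (median 0.10). That is 65.9% called, against 66.4% of all tested probe sets. EIF4EBP1, the repressor that binds eIF4E itself, was higher by 2.27 ± 0.14 (adjusted p = 9.39e-10), and MAP1LC3B, a coat protein of autophagosomes, by 1.85 ± 0.13 (adjusted p = 3.01e-09). NIBAN1 and SLC7A1, a transporter of cationic amino acids, fell by 1.99 (SE 0.12) and 1.96 (SE 0.10). SLC7A1 went from 4309 ± 448 in untreated IgG to 1066 ± 134 in untreated eIF4E (adjusted p = 2.88e-10), and like SLC7A11 it is a plasma membrane amino acid transporter.

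Other messengers known for uORFs had 19 tested probe sets of 11 genes, 4 higher and 9 lower (median -0.24). That is 68.4% called, against 66.4% of all tested probe sets. UCP2, a mitochondrial carrier, was higher by 1.34 ± 0.21 in 208997_s_at but lower in 208998_at (-0.34, adjusted p = 0.0225). AMD1, an enzyme of polyamine synthesis, was higher by 1.02 ± 0.12 in 201196_s_at, while 201197_at did not pass (0.14, adjusted p = 0.417). SLC7A1, which this list also holds, and EPRS1, a tRNA synthetase, had the lowest values, with EPRS1 at -1.79 ± 0.24 (adjusted p = 4.86e-06). Members with uORFs were likewise split, with ATF4, DDIT3 and PPP1R15A higher and ATF5 lower.

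Genes of the unfolded protein response had 39 tested probe sets of 23 genes, 10 higher and 18 lower (median -0.31). That is 71.8% called, against 66.4% of all tested probe sets. SEC61B, part of the translocation channel, was higher by 1.15 ± 0.10, while SEL1L, part of the degradation machinery, and ATF6, a membrane-bound stress sensor, fell by 1.78 (SE 0.15) and 1.49 (SE 0.14). Their other probe sets fell less, with 202062_s_at and 202064_s_at of SEL1L at -0.80 and -0.96 and 203952_at of ATF6 at -0.53. CALR, a chaperone, was higher by 1.46 ± 0.18 in 200935_at but lower in 212953_x_at and 214315_x_at (-0.34 and -0.60, adjusted p = 0.0203 and 0.000736). Other bZIP transcription factors, the family of ATF4, had 41 tested probe sets of 23 genes, 14 higher and 14 lower (median -0.16, 68.3% called). JUND and JUNB, partners in AP-1, were higher by 1.54 ± 0.25 and 1.39 ± 0.26 over both treatments. For JUND this was 203751_x_at, while 203752_s_at was at 0.78. JUN, of the same list and also of AP-1, went the other way. It fell in 201466_s_at (-1.49, adjusted p = 1.48e-05) and 201465_s_at (-0.96, adjusted p = 0.000475). Its probe sets 201464_x_at (-0.28) and 213281_at (-0.53) did not pass. JUNB was at 2.16 ± 0.37 in untreated cells (adjusted p = 0.000127) and at 0.62 ± 0.37 in irradiated cells, where it did not pass (adjusted p = 0.171), and the change between treatments did not pass either (-1.54 ± 0.53, adjusted p = 0.999). The untreated IgG signals of JUND and JUNB (21.0 ± 10.5 and 36.9 ± 32.0, SD, n = 3) were close to those of markers not found in this line, and the sizes moved with the pseudocount, from 2.02 and 1.71 with 1 to 0.93 and 0.92 with 64. CREB3L2 and NFE2L1, both anchored in the endoplasmic reticulum membrane, fell by 1.92 (SE 0.15) and 1.62 (SE 0.11). In the 3 irradiation comparisons 0 probe sets of these lists passed.

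**Figure D4:**
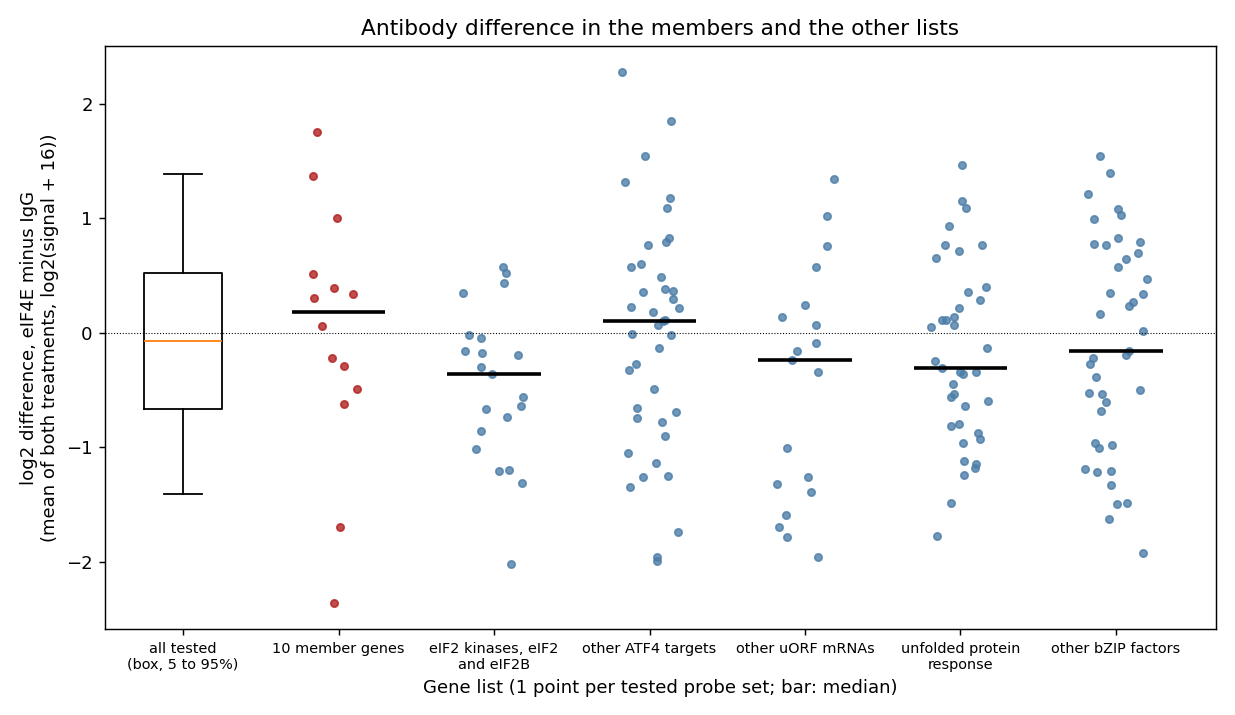
Antibody difference averaged over both treatments (vertical axis, log2(signal + 16)), 1 point per tested probe set, for the members and 5 other lists, with each list's median as a bar. The box at the left gives the median, quartiles and 5 to 95% range of all 11438 tested probe sets, and the members reach from -2.36 to 1.75.

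The members' antibody differences were set beside the genomic span of their genes, from RefSeq. Each gene has 1 span there, so a gene with several starts, such as ATF3 and possibly ASNS, may be shorter from some of them. Its span class and its place in the order of lengths may then differ. The shortest members were DDIT4 at 2.11 kb, ATF4 at 2.13 kb, PPP1R15A at 3.64 kb and DDIT3 at 3.93 kb. ATF5 (5.03 kb), XBP1 (6.01 kb) and TRIB3 (16.8 kb) followed, and ATF3 (55.4 kb), ASNS (76.8 kb) and SLC7A11 (78.3 kb) were the longest. All tested probe sets of the 4 shortest members were higher with eIF4E, and those of the 2 longest by these spans (ASNS and SLC7A11) were below 0. Over all 7756 tested genes with a span, which share the 12 arrays, Spearman's rho between span and difference was -0.46. The 695 genes under 5 kb had a median of 0.61, the 4315 from 5 to 50 kb one of 0.10 and the 2746 above 50 kb one of -0.53. Among the short members DDIT3 and both probe sets of PPP1R15A thus lay above the median of their span class, and DDIT4 (0.39) and ATF4 (0.52) lay below it. Among those of 5 to 50 kb, XBP1 and TRIB3 lay above the median and both tested probe sets of ATF5 below it. Of the long ones, ATF3, ASNS and 207528_s_at of SLC7A11 lay above the median and the other two probe sets of SLC7A11 below it.

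**Figure D5:**
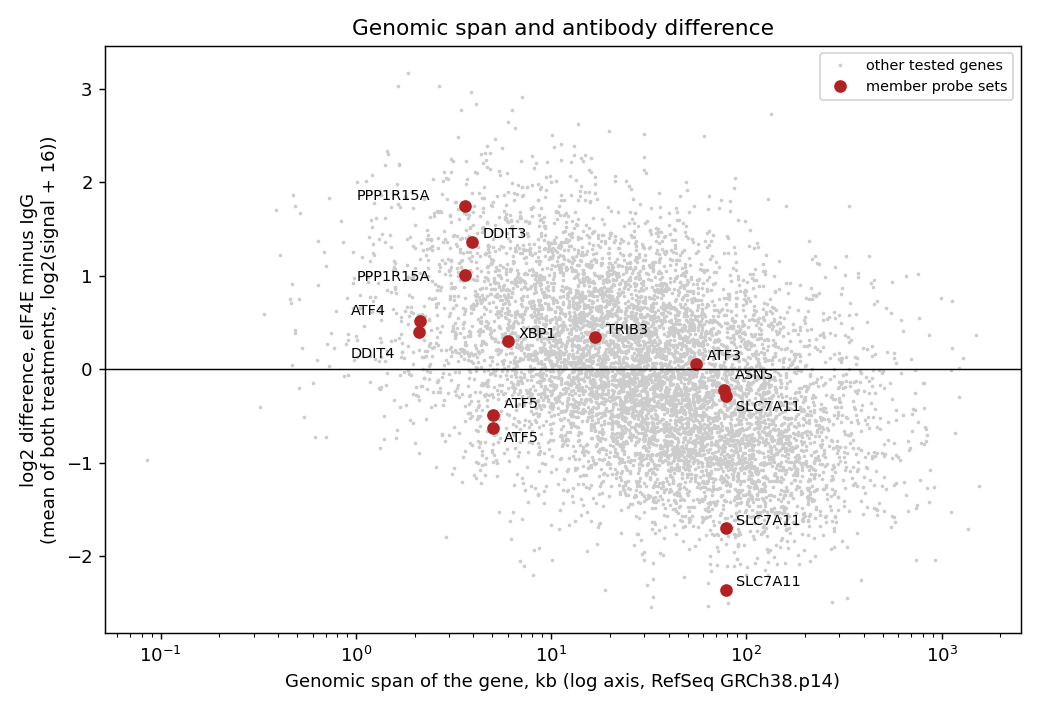
Genomic span (horizontal axis, kb, log axis) and antibody difference averaged over both treatments (vertical axis, log2(signal + 16)) of the tested genes (grey, 1 probe set each) and of the 14 member probe sets (red). The grey cloud falls to the right (rho = -0.46), and the ATF5 points lie below 0 at 5.03 kb.

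The probe sets with the pattern most like that of ATF4 over the 12 arrays were those of COXFA4, a subunit of the respiratory chain (Pearson's r = 0.957), UBE2D4, a ubiquitin-conjugating enzyme (0.948), ATP5MC2, a ring subunit of ATP synthase (0.944), TSPAN31, a tetraspanin (0.940) and RGS19, a regulator of G protein signalling (0.935). These values are a description. The arrays fall into 2 antibody groups, so any probe set apart by antibody shares part of the pattern. Among the members, DDIT3 was nearest to ATF4 (0.909), and 217678_at of SLC7A11 ran most clearly opposite to it (-0.90).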

How the data were processed

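RNA of 12 precipitates was hybridised to Affymetrix arrays. The deposited values are intensities on a linear scale, which the authors computed with MAS5, per the submitters' processing notes (version not given in the sources used here). No further normalization was applied. Of 22277 features, 62 were controls, 19064 probe sets had 1 gene, 1043 several and 2108 none. Gene identifiers linked 19052 of them to current RefSeq symbols (GRCh38.p14). Groups and replicate numbers came from the titles. The positions of probes along a messenger were not used here.

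The 11438 probe sets (7757 genes) whose mean log2 value was at or above the 40th percentile (a signal of 39.5) were fitted on log2(signal + 16), which understates changes of dim probe sets, with limma 3.58.1 in R 4.3.3 (4 group means, eBayes with a trend), at an adjusted threshold of 0.05. The number of arrays limits the precision. Log2 values correlated at 0.956 to 0.986 within groups, and 0 array pairs were identical. The fit was also run on simulated data with independent noise and few changed probe sets. In the data 66.4% of the tested probe sets passed between antibodies, so that run does not describe this setting. Figures were drawn with matplotlib 3.10.9.

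The members and gene lists were chosen with earlier results of these data known. All members were named. From each other list up to 2 genes at either end of the mean antibody comparison were named, with the 5 probe sets most correlated with ATF4. The value named is that of the gene's most extreme probe set in that direction. Values of a list gene's further probe sets, and of some related genes of the same list, were added to show disagreement.

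Same-numbered eIF4E arrays of untreated and irradiated cells deviated together (correlations of 0.311, 0.181 and 0.123) while the labels name no shared culture. The values given come from the fit without a replicate block, and the fit with it was an alternative. For each of the remaining 5 group pairs, 1 or more of the correlations lay below 0.1. Replicate 1 of these pairs gave 0.203, 0.222, 0.249, 0.0899 and 0.248. Alternatives were other pseudocounts (1 and 64), filters, scalings, variance models and weights, the replicate number as a block, fits of 2 groups alone, 1 probe set or the mean of probe sets per gene, and the omission of arrays.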

Additional observations from a re-analysis of the deposited data

How the results depend on the processing

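Of 1197 alternative values for 50 single results, 1133 kept direction and side of the threshold, 28 lost a call, 17 gained one and 19 changed sign, 0 of them called in either setting. With the mean of all probe sets of a gene, members called were 6 of 10 genes over both treatments, 4 in untreated and 5 in irradiated cells, and with 1 probe set per gene 4 in untreated cells; fewer features enter these fits. Leaving out 1 array gave 9 to 10 calls over both treatments, 6 to 8 in untreated and 6 to 8 in irradiated cells. With the replicate block 11 member probe sets passed over both treatments (TRIB3 was gained, and no other call given in the text changed). In untreated cells 7 passed, in irradiated cells 8, and 0 in each irradiation comparison. Array quality weights called 9 probe sets over all for 2 Gy with eIF4E, 0 of them members.

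Sign changes were those of values near 0. ATF3 in irradiated cells (-0.04) was at 0.060 after quantile normalization, 0.040 after centring, 0.064 with array quality weights, 0.037 without replicate 1 of every group and -0.20 to 0.086 with 1 array left out. In untreated cells ATF3 was at -0.00081 without replicate 1 of every group, and over both treatments at -0.027 to 0.13 with 1 array left out. With 1 array left out, ASNS was at -0.34 to 0.047 in untreated and -0.51 to 0.055 in irradiated cells, and 207528_s_at of SLC7A11 at -0.38 to 0.12 in irradiated cells. For 2 Gy with eIF4E, ATF4 was at 0.057 without replicate 1 of every group and at -0.24 to 0.044 with 1 array left out, and 202014_at of PPP1R15A at -0.17 to 0.036. The cause was not tested. For the 19 probe sets of other list genes named at the ends of their lists, all 415 values under alternatives, chosen after seeing the data, kept direction and side of the threshold. The median of all probe sets over both treatments moved from -0.07 to 0.03 after quantile normalization and to 0.04 after centring.

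In untreated cells array quality weights also brought TRIB3 (adjusted p = 0.0225) and 204998_s_at of ATF5 (0.0249) past the threshold, as did only the groups compared for the latter (0.0456). In irradiated cells XBP1 passed after quantile normalization (0.0312). XBP1 lost its call over both treatments with no filter (0.0578), no variance trend (0.059) and array quality weights (0.0963). The SE over both treatments, which limits the differences that pass, was 0.23 for the dim 207528_s_at of SLC7A11. For ATF3 it was 0.16, as for DDIT3, which passed.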
